A study of Mus musculus with 2 samples.

Results

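The lysosome is the acidic compartment in which cells break down macromolecules, and 46 genes for its hydrolases, their activators, its cathepsins and its membrane proteins were compared between 4T1 mouse mammary carcinoma cells and cells recovered from 4T1 liver metastases. The 46 genes were chosen by symbol, with earlier results of these data known, out of 18193 genes that the array annotation pairs with a probe set of their own. The first group was the 4T1 parental line, which is a carcinoma line of BALB/c mouse origin. The second was the population labelled 4T1-3R liver metastatic cells, written 4T1-3R_L in the labels' protocols, which was isolated from liver metastases in vivo. Both populations were cultured before total RNA was purified, and no drug or genetic change is given for either. The labels do not say what 3R stands for, how many mice or colonies the metastatic population came from, or how long it was kept in culture. Growth in the liver and later growth in the dish therefore cannot be told apart. Each population was measured on 1 array, so there is no spread between replicates, no test was run, and every value describes these 2 arrays.

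Most lysosomal hydrolases are made in the endoplasmic reticulum, tagged with mannose phosphate in the Golgi and carried to the lysosome by mannose phosphate receptors. In the lysosome they work in ordered chains, each enzyme removing a sugar, sulfate, acyl group or peptide that the next enzyme cannot act on, so that loss of a single enzyme causes a storage disease. The cathepsins are the main lysosomal proteases, and in carcinomas several of them are also secreted and cut matrix proteins. Many lysosomal genes are controlled together by TFEB and its relatives, transcription factors that bind a palindromic element called CLEAR, whose centre is an E-box.

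The deposited values are MAS5 signals, a linear brightness for each probe set. A floor of 90.6, the median of all signals on both arrays, stood in for the background. Of the 46 genes, 44 reached the floor on at least 1 array, and these 44 were at or above it on both. Ctsk and Ctss were under it on both arrays. The arrays had been scaled to a common trimmed mean of 500.003, and the median gene of the 11135 that reached the floor had a log2 ratio of 4T1-3R_L over parental signal of -0.01. Of 10 markers of mammary carcinoma epithelium, 9 were above the floor on both arrays, among them Krt8 at 18784 and 21891 and Cdh1 at 11787 and 5941 in parental and 4T1-3R_L cells. Krt8 was the 1 marker with a higher signal in 4T1-3R_L cells. The other 8 were lower, 4 of them (Krt14, Cldn4, Epcam and Cldn3) at least 2-fold. That is 44.4% of the 9, against 4.48% of the 11135 genes. The median log2 ratio of the 9 was -0.99, and the list summed to 92037 and 65044.

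Lysosomal genes had higher signals in 4T1-3R_L cells than in parental cells across most substrate classes. In RNA from whole cultures, fewer cells that express a gene and less RNA of it in each cell cannot be told apart. Of the 44 genes that reached the floor, 37 had a higher signal in 4T1-3R_L cells and 7 a lower one, whereas over all 11135 genes 49.5% were higher. The 7 were Gla, Gusb, Aga, Ctsc, Ctsw, Lamp1 and Mcoln1. At least 2-fold higher were 9 of the 44, namely Hexa, Acp5, Ppt1, Ctsh, Arsa, Naglu, Npc1, Ctsa and Galc, which is 20.5% against 6.23% of all genes. At least 2-fold lower were Ctsw and Ctsc, which is 4.55% against 4.48% of all genes and so near the background. At least 1.5-fold higher were 20 of the 44 (45.5%, against 15.8% of all genes) and at least 1.5-fold lower were 2 (4.55%, against 14%). The median log2 ratio of the 44 was 0.54, with quartiles of 0.23 and 0.97, and it stayed at 0.54 over the 42 genes other than Hexa and Ctsw.

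These counts depend on how the arrays are set against each other. The 18 hybridisation control probe sets, which report labelled cRNAs added to the hybridisation mix, were brighter on the 4T1-3R_L array by 0.59 on the log2 scale. Scaling to them lowered the median of all genes to -0.55 and that of the lysosomal genes to -0.05, with Hexa as the 1 gene still 2-fold higher and with 2 genes 2-fold lower, against 2.15% and 21.0% of all genes. Under that scaling 20 of 44 lysosomal genes were above 0, while 37 of 44 still lay above the median of all genes. Centring each array on its median left 7 lysosomal genes at least 2-fold higher, with Galc and Ctsa just under 2-fold, and 2 lower, and turned the split over all genes from 694 higher and 499 lower to 585 and 637. The directions given here for single genes therefore hold relative to the other genes on these arrays.

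**Figure D1:**
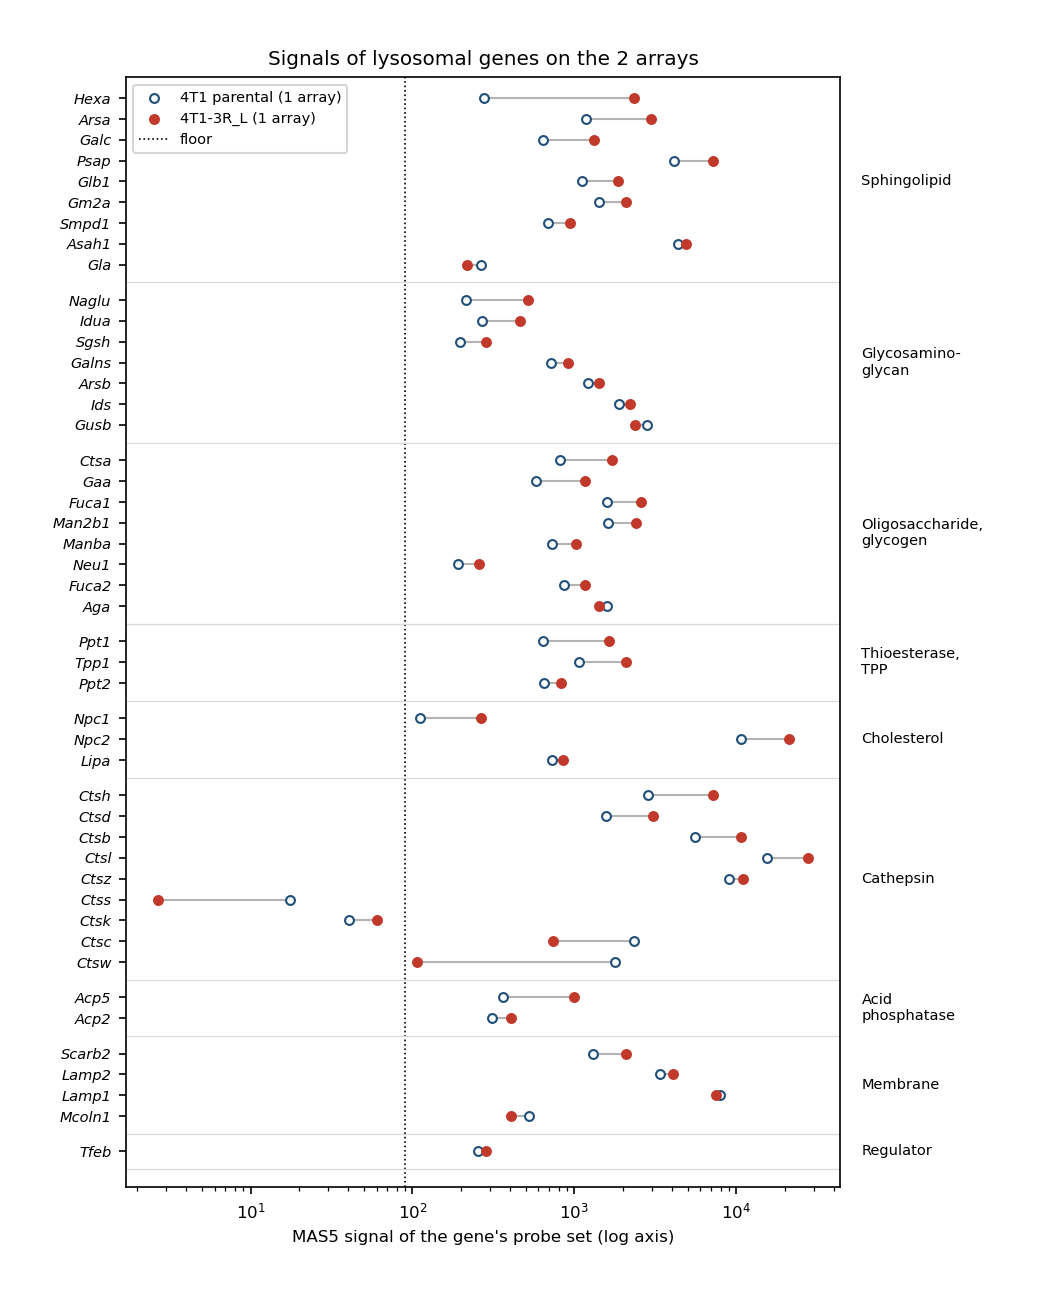
MAS5 signals (log axis) of the 46 lysosomal genes, grouped by substrate class, on the parental array (open circles) and the 4T1-3R_L array (filled circles), with a line joining the 2 values of each gene and a dotted line at the floor of 90.6. In most classes the filled circle lies to the right of the open circle; the longest line among genes above the floor belongs to Ctsw, at 1779 in parental and 107.3 in 4T1-3R_L cells.

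The promoters of these genes were searched for the TFEB element and its E-box. RefSeq promoter windows of the GRCm38.p6 build, each 300 bases long with 250 before and 50 after a gene start, were given for 39 of the 46 genes, in 49 windows. Asah1, Aga, Galns, Npc1, Ctsb, Ctsh and Ctsw were not among them. The full CLEAR element, which adds a G before and a C after the core given next, was in 0 of the 39 and in 0.370% of the 27025 genes of the table. Its core TCACGTGA was in 4 of the 39 genes (10.3%), namely Ctsa, Ctsd, Gla and Mcoln1, against 1.12% of all genes. The E-box CACGTG, which lies within both longer motifs, was in 11 of the 39 genes (28.2%) against 8.09% of all genes. All 3 motifs are palindromes, so both strands are covered by a single search.

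The 6 windows that hold the core are shown first, followed by those around the E-boxes of Arsa and Naglu, the other 2 genes with an E-box that were at least 2-fold higher. Each is 30 bases long, 5′ to 3′ on the strand of the gene, with the core or the E-box in capitals. The 8 windows were chosen after the values were seen.
Ctsa, chr2:164833749-164833778, + strand: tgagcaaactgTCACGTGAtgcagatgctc
Ctsa, chr2:164833766-164833795, + strand: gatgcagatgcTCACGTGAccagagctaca
Ctsd, chr7:142387908-142387937, - strand: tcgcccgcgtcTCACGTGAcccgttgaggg
Gla, chrX:134601215-134601244, - strand: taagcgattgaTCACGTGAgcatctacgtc
Gla, chrX:134601182-134601211, - strand: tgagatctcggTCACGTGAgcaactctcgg
Mcoln1, chr8:3500462-3500491, + strand: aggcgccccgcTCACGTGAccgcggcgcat
Arsa, chr15:89477423-89477452, - strand: tcaactcagtgtCACGTGttgtctgctcct
Naglu, chr11:101070009-101070038, + strand: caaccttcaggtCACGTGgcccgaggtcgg

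The genes with these motifs went both ways. Among the 4 genes with the core, Ctsa (log2 ratio 1.06) and Ctsd (0.97) had higher signals in 4T1-3R_L cells, and Gla (-0.29) and Mcoln1 (-0.36) had lower ones. The other E-box genes were Arsa (1.33), Naglu (1.26), Gaa (0.9996), Ctsl (0.83), Glb1 (0.74), Sgsh (0.53) and Lamp1 (-0.08). Lamp1 held 4 E-boxes and none of them was within the core. The median log2 ratio was 0.83 over the 11 genes with an E-box and 0.48 over the 26 without it that reached the floor. The share of genes above 0 ran the other way, with 8 of the 11 and 24 of the 26. For the core the median also ran the other way, at 0.34 over the 4 genes with it and 0.54 over the 33 without it. These differences were not tested. A match in these windows is a description of the letters and does not show binding. Tfeb itself had a signal of 253.5 in parental and 284.8 in 4T1-3R_L cells, a log2 ratio of 0.17, so its transcript level was close to equal on the 2 arrays.

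Among 9 enzymes and activators of sphingolipid breakdown, 8 had higher signals in 4T1-3R_L cells (88.9%, against 49.5% of all genes). At least 2-fold higher were 3 of the 9 (33.3%, against 6.23% of all genes), and the class median was 0.74 on the log2 scale. Hexa, which encodes the alpha subunit of the beta-hexosaminidase that removes N-acetylgalactosamine from GM2 ganglioside, had a signal of 276.4 in parental and 2327.7 in 4T1-3R_L cells. This is 8.42-fold, a log2 ratio of 3.07, and the largest higher value among the 44 genes. Hexa has a single probe set, whose name does not end in plain _at, so this value has no second probe set beside it and none with plain _at probe sets only. Its partner in ganglioside breakdown, the lipid transfer protein GM2 activator encoded by Gm2a, had signals of 1430.0 and 2080.2, a log2 ratio of 0.54, and 0.16 on a second probe set. The difference in Hexa was thus larger than that in Gm2a on these arrays.

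The 250 bases before the start of Hexa (GRCm38.p6, chr9:59539290-59539539, + strand) are given because Hexa differed most among the genes that were higher, and they hold no CACGTG.
Hexa: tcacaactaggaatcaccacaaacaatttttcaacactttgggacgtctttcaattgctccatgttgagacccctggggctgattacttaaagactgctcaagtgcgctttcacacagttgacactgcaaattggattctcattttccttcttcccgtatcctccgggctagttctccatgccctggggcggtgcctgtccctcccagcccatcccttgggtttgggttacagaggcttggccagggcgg

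The enzymes of sulfatide and galactosylceramide breakdown were both at least 2-fold higher. Arsa, the sulfatase that takes the sulfate off sulfatide, had signals of 1182.6 and 2967.0 in parental and 4T1-3R_L cells, 2.51-fold. Galc, which then removes the galactose, had signals of 636.1 and 1322.0, 2.08-fold, and a log2 ratio of 0.65 on the other probe set. Psap encodes prosaposin, the precursor of the saposins that present these lipids to the enzymes. Its signals were 4113 and 7208, a log2 ratio of 0.81, and 0.27 on the other probe set. Glb1, the lysosomal beta-galactosidase often stained as a senescence marker, had signals of 1112 and 1862, a log2 ratio of 0.74.

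Smpd1, Asah1 and Gla, also of the sphingolipid class, each differed by less than 2-fold. Smpd1, acid sphingomyelinase, had signals of 683 and 939.9, with log2 ratios of 0.46 and 0.44 on its 2 probe sets. Asah1, acid ceramidase, had signals of 4366 and 4889, a log2 ratio of 0.16. Gla, the alpha-galactosidase that acts on globotriaosylceramide, was the 1 member of the class with a lower signal in 4T1-3R_L cells, at 266.2 against 217.0. Its log2 ratio was -0.29, and -0.05 on a second probe set that was under the floor in 4T1-3R_L cells.

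Genes for the breakdown of glycosaminoglycans, the long sugar chains of proteoglycans, had a class median of 0.35, with 6 of 7 higher. Naglu, which removes N-acetylglucosamine from heparan sulfate, had signals of 214.6 and 514.1 in parental and 4T1-3R_L cells, 2.40-fold. It was the 1 gene of the 7 past 2-fold (14.3%, against 6.23% of all genes). Sgsh, the heparan sulfamidase, had signals of 196.9 and 285.1, a log2 ratio of 0.53. A second probe set of Sgsh gave -0.08, from 95.8 in parental cells to a signal under the floor.

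Ids and then Idua act first and in sequence on heparan and dermatan sulfate. Idua, the iduronidase, had signals of 270.5 and 461.5, a log2 ratio of 0.77, but its second probe set had signals of 218.1 and 153.1, a log2 ratio of -0.51. The direction for Idua therefore differs between its probe sets. Ids, the iduronate sulfatase, had signals of 1897 and 2213, a log2 ratio of 0.22, with -0.24, 0.47 and -0.14 on 3 further probe sets that were all dimmer. Its values lie on both sides of 0 and show no clear direction.

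The remaining genes of this class stayed within 1.3-fold on the probe set used. Galns, a sulfatase for keratan and chondroitin sulfate, had signals of 720.2 and 915.3, a log2 ratio of 0.35. Arsb, the sulfatase of dermatan and chondroitin sulfate, had signals of 1207 and 1414, a log2 ratio of 0.23, with 0.59 and -0.39 on 2 dim probe sets. Gusb, the beta-glucuronidase, went the other way, at 2825 in parental and 2377 in 4T1-3R_L cells. Its log2 ratio was -0.25, and -0.68 on the other probe set, so both probe sets were lower in 4T1-3R_L cells.

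**Figure D2:**
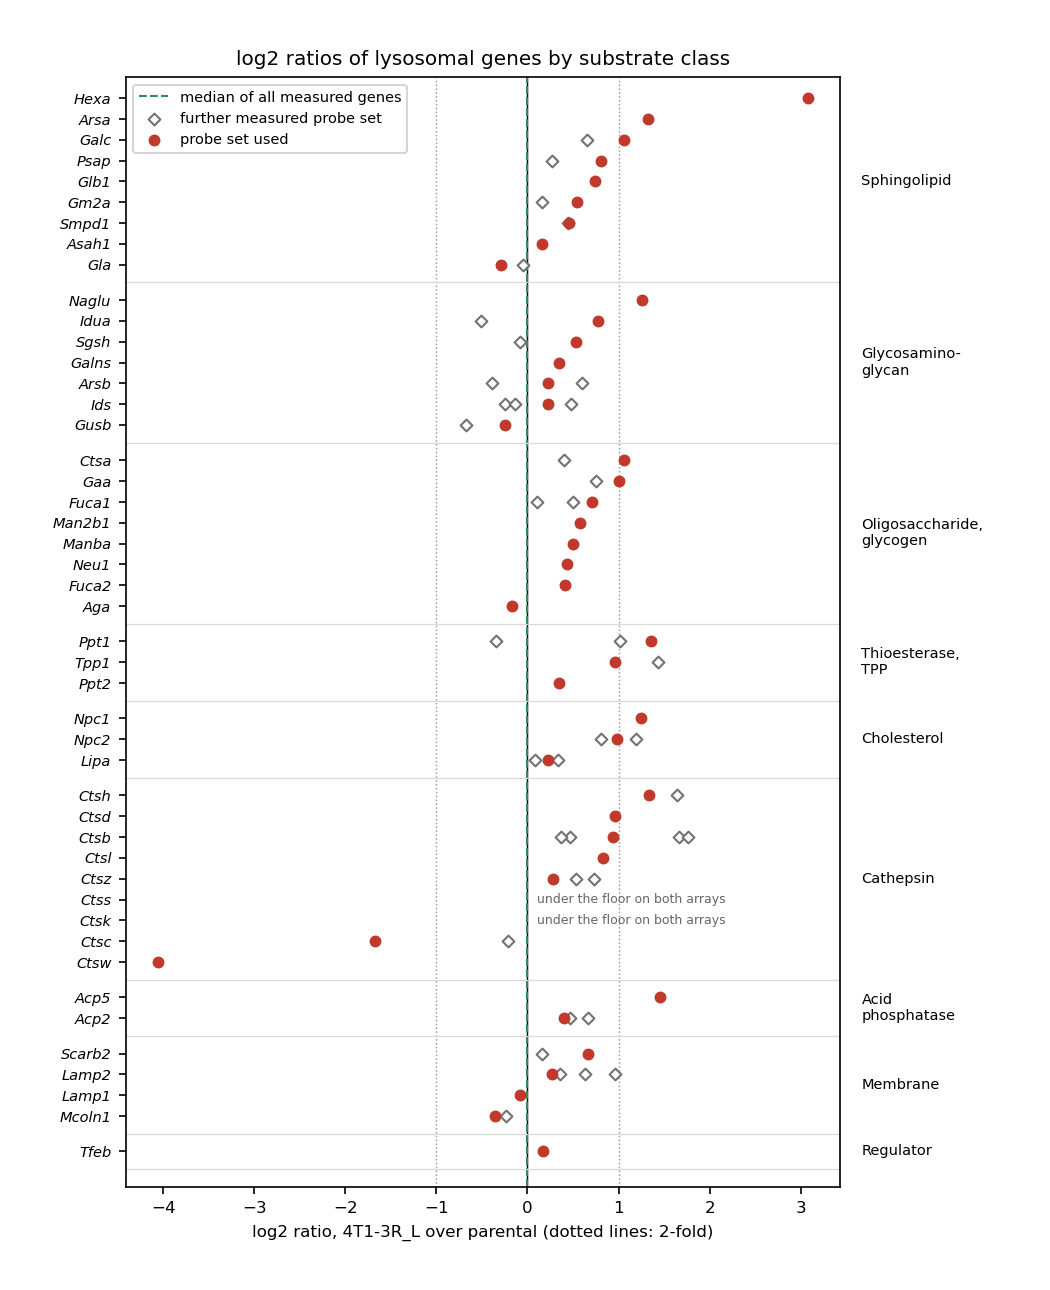
log2 ratios of 4T1-3R_L over parental signal for each lysosomal gene, grouped by substrate class: filled circles are the probe set used and open diamonds the further probe sets that reached the floor, with dotted lines at 2-fold and a dashed line at the median of all measured genes. Hexa (3.07) and Ctsw (-4.05) lie farthest out, and the diamonds of Idua, Ids, Arsb, Sgsh and Ppt1 fall partly on the other side of 0.

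Of 8 genes for the breakdown of glycoprotein sugars and of glycogen, 7 were higher and the class median was 0.54. Ctsa, protective protein or cathepsin A, holds beta-galactosidase and sialidase in a stable complex. Its signals were 819.6 and 1714.5, 2.09-fold, with a log2 ratio of 0.40 on a second probe set that was under the floor in parental cells. The sialidase of that complex, Neu1, had signals of 189.9 and 256.0, a log2 ratio of 0.43. The 3 partners Ctsa, Glb1 and Neu1 were thus all higher in 4T1-3R_L cells, by differing amounts.

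Gaa, the acid alpha-glucosidase that digests glycogen, had signals of 580.6 and 1160.9, a 1.9995-fold difference that lies just under 2-fold, and a log2 ratio of 0.75 on the other probe set. Fuca1, the lysosomal fucosidase, had signals of 1581 and 2575, a log2 ratio of 0.70, with 0.50 and 0.11 on 2 further probe sets. Its relative Fuca2, which is largely secreted, had signals of 867.7 and 1156.7, a log2 ratio of 0.41. Both fucosidases were therefore higher, Fuca1 by more on the probe set used.

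The mannosidases differed by similar amounts. Man2b1, the lysosomal alpha-mannosidase, had signals of 1616 and 2415, a log2 ratio of 0.58. Manba, the beta-mannosidase, had signals of 724.2 and 1020.6, a log2 ratio of 0.495. Aga, which cuts the bond between the sugar chain and asparagine, was the exception in the class, with signals of 1596 and 1417 and a log2 ratio of -0.17.

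Enzymes whose loss causes neuronal ceroid lipofuscinosis were higher. Ppt1, the palmitoyl thioesterase that strips fatty acids from proteins, had signals of 641.8 and 1642.9, 2.56-fold. A second probe set of Ppt1 was 2.02-fold higher, whereas a further, dim probe set had a log2 ratio of -0.35, from 115.3 to a signal under the floor. Tpp1, the tripeptidyl peptidase, had signals of 1067 and 2075, a log2 ratio of 0.96, and 1.43 on the other probe set. The related thioesterase Ppt2 had signals of 648.7 and 822.1, a log2 ratio of 0.34.

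The pair of proteins that hands cholesterol out of the lysosome was higher in 4T1-3R_L cells. Npc2, the soluble carrier, had signals of 10717 and 21163, a log2 ratio of 0.98, with 0.80 and 1.19 on 2 further probe sets. Npc1, the membrane transporter that takes cholesterol from it, had signals of 112.1 and 266.1, 2.37-fold. The parental signal of Npc1 is little above the floor. Raising the floor to the 60th percentile took its log2 ratio from 1.25 to 0.66. Lipa, the acid lipase that frees cholesterol from its esters, differed little, at 725.1 and 847.4, with log2 ratios of 0.22, 0.08 and 0.33 on its 3 probe sets.

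The cathepsins differed in both directions and held the difference farthest from 0, that of Ctsw. Of 9 genes, 7 reached the floor, 5 of them higher and 2 lower in 4T1-3R_L cells, with a median log2 ratio of 0.83. When only probe sets with names ending in plain _at were used, Ctsd, Ctsl and Ctsz dropped out and the median relative to all genes turned to -0.34, so the class median is not stable. It was 0.55 relative to all genes when the floor was lowered to the 40th percentile and 0.34 with the pseudocount and no filter, where genes under the floor entered. Ctsw, cathepsin W, is known from cytotoxic lymphocytes. Its signal was 1778.5 in parental and 107.3 in 4T1-3R_L cells, 16.6-fold lower and close to the floor there; the log2 ratio was -4.05, or -3.40 when the floor was raised to the 60th percentile. It has a single probe set.

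Ctsc, cathepsin C or dipeptidyl peptidase I, activates the granule proteases of leukocytes and was also lower. Its signals were 2347.5 and 738.3, 3.18-fold lower, a log2 ratio of -1.67. A second, dim probe set of Ctsc gave -0.21, from 105.0 to a signal under the floor, and with the median over the probe sets that reached the floor the log2 ratio was -0.94. Ctsw and Ctsc were thus the 2 genes at least 2-fold lower among the 44, and the call of Ctsc depends on the choice of probe set.

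Markers of leukocytes mostly lay below the floor in both populations. Of 10 T and NK cell markers, 8 were under it on both, among them Cd3e at 7.6 and 12.7, Cd3g at 5.5 and 7.5, Nkg7 at 3.2 and 19.3 and Gzma at 36.5 and 31.0 in parental and 4T1-3R_L cells. The list summed to 371.0 and 407.0, and the 2 markers that reached the floor were Prf1 (147.1 and 87.1) and Cd8a (108.4 and 105.2). Of 18 macrophage and Kupffer cell markers, 14 stayed below the floor in both populations, including Ptprc at 21.7 and 26.5, Adgre1 at 67.5 and 88.8 and Lyz2 at 35.9 and 45.1. Csf1r, the receptor for macrophage colony-stimulating factor, was lower as well, at 1026 in parental cells and under the floor in 4T1-3R_L cells. It was at least 11.3-fold lower, with log2 ratios of -2.26 and -0.79 on 2 further probe sets. The macrophage list as a whole summed to 2689.8 and 1480.4, with Cd14 at 748.6 and 458.8, Cd68 at 388.0 and 374.0 and Laptm5 at 172.8 and 136.4 as the other markers above the floor. The part of these markers in the values of Ctsw and Ctsc was not tested.

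The 5 cathepsins other than Ctsw and Ctsc that reached the floor were higher in 4T1-3R_L cells. Ctsh, an aminopeptidase, had signals of 2834 and 7144, 2.52-fold, and its second probe set was 3.13-fold higher. Ctsb, the cysteine protease most often linked to carcinoma invasion, had signals of 5569 and 10651, a log2 ratio of 0.94, with values from 0.37 to 1.76 on 4 further probe sets. All 5 probe sets of Ctsb were higher in 4T1-3R_L cells.

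Ctsd, the lysosomal aspartic protease, had signals of 1569 and 3063, a log2 ratio of 0.97. Ctsl, cathepsin L, had signals of 15503 and 27562, a log2 ratio of 0.83. Ctsz, cathepsin Z or X, had signals of 8999.7 and 10967, a log2 ratio of 0.29, with 0.72 and 0.53 on 2 further probe sets. These 3 genes were thus higher by less than 2-fold each. Ctsk, the collagen-cutting cathepsin of osteoclasts, had signals of 40.6 and 60.3, and Ctss, the cathepsin of antigen-presenting cells, had signals of 17.5 and 2.7, all under the floor, so no ratio is given for either.

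Both acid phosphatases were higher, with a median of 0.92 that rests on 2 genes and was 0.43 relative to all genes with plain _at probe sets, which leave Acp2. Acp5, the tartrate-resistant phosphatase used to stain osteoclasts, had signals of 362.4 and 990.9, 2.73-fold, on its single probe set. Among osteoclast markers, Oscar (48.6 and 72.6), Ocstamp (28.9 and 22.5), Dcstamp (6.8 and 15.4), Calcr (26.8 and 4.0) and Atp6v0d2 (47.4 and 34.1) lay below the floor in both populations. The 8 markers of that list summed to 836.1 and 854.1, with Nfatc1 (435.1 and 487.5), Itgb3 (114.9 and 142.1) and Tnfrsf11a (127.6 and 75.9) reaching the floor. Acp2, the housekeeping lysosomal phosphatase, had signals of 308.6 and 406.8, with log2 ratios of 0.40, 0.67 and 0.46 on its 3 probe sets. Markers of the organ from which the cells came were not detected above the floor either, since all 10 hepatocyte markers were under it on both arrays, with signals of at most 57.4 and 62.6 and sums of 296.0 and 248.0. Of 10 fibroblast and stellate cell markers 8 were as well, with sums over the 10 of 668.4 and 482.3.

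Of 4 lysosomal membrane proteins, not counting Npc1, 2 were higher and the median was 0.09. None of them was at least 2-fold apart, against 10.7% of all genes, which 4 genes are too few to tell apart. With plain _at probe sets, which leave Lamp2 and Scarb2, the median relative to all genes was 0.49. Lamp1, the most used marker of the lysosomal membrane, had signals of 7933 and 7484, a log2 ratio of -0.08. Lamp2, its relative that also serves chaperone-mediated autophagy, had signals of 3391.5 and 4073, a log2 ratio of 0.26, with 0.96, 0.63 and 0.35 on 3 further probe sets. Every Lamp2 probe set was thus higher in 4T1-3R_L cells, by more than the probe set used.

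Scarb2, the receptor that carries glucocerebrosidase to the lysosome, had signals of 1308 and 2078, a log2 ratio of 0.67, and 0.16 on the other probe set. Mcoln1, the calcium channel of the lysosome that acts upstream of TFEB, had signals of 521.6 and 407.4, with log2 ratios of -0.36 and -0.23 on its 2 measured probe sets. Mcoln1 was therefore lower on both, by less than 2-fold.

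Further probe sets gave a check of the probe choice. Of the 46 genes, 30 had several probe sets and 25 of these had a second one that reached the floor. It had the same sign as the probe set used in 22 of the 25 and the opposite sign in Ids, Idua and Sgsh. Over all 39 further probe sets that reached the floor, 33 shared the sign and 6 did not. Of the 11 genes at least 2-fold apart, Hexa, Arsa, Naglu, Npc1, Acp5 and Ctsw have 1 probe set each, so no such check exists for them.

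The other genes of the lysosomal pathway, from 7 lists of 150 symbols of which 133 were matched to a probe set, gave smaller shifts. Of the 118 that reached the floor, 77 were higher (65.3%, against 49.5% of all genes) and 41 lower. Past 2-fold were 5 upwards and 4 downwards. These are 4.24% and 3.39%, near the 6.23% and 4.48% of all genes. Their median log2 ratio was 0.18, against 0.54 for the 44 lysosomal genes described above and -0.01 for all genes. The difference between these medians was not tested.

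Other lysosomal hydrolases and lumenal proteins came closest, with 15 of 19 higher and a median of 0.39. None was at least 2-fold higher, but 6 of the 19 were at least 1.5-fold higher (31.6%, against 15.8% of all genes). At least 1.5-fold lower were 2 (10.5%, against 14% of all genes). The 1 gene at least 2-fold lower was Epdr1, a lysosomal lipid-binding protein, at 219.1 in parental cells and under the floor in 4T1-3R_L cells, at least 2.42-fold lower. Sumf1, the enzyme of the endoplasmic reticulum that activates all sulfatases, including the products of Arsa, Arsb, Galns, Ids and Sgsh, had signals of 629.7 and 1258 and a log2 ratio of 0.998, just under 2-fold, but 0.30 on the other probe set.

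Among 22 other lysosomal membrane proteins, 14 were higher, and the median was 0.26. Tpcn1, a cation channel of endosomes and lysosomes, had signals of 353 and 2665, a log2 ratio of 2.92, and 0.77 on a second probe set that was under the floor in parental cells. The 17 measured subunits of the V-ATPase, the proton pump that acidifies the lysosome, went both ways. On the probe sets used 10 were higher (58.8%, against 49.5% of all genes) and 7 lower, from Atp6v1f at -0.65 to Atp6v0b at 0.85. None of the 17 was at least 2-fold apart, against 10.7% of all genes. Further probe sets gave 0.19 and 0.11 for Atp6v0b, and -1.01 for Atp6v1b2 against -0.44 on the probe set used. The median of the 17 subunits was 0.13.

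Genes that sort enzymes to the lysosome were evenly placed, with 10 of 18 higher and a median of 0.07. Gnptab, which encodes the subunits of the phosphotransferase that starts the mannose phosphate tag, had signals of 1330.1 and 647, a log2 ratio of -1.04, with -1.17 and -1.63 on 2 further probe sets. Gga1, an adaptor that carries tagged enzymes out of the Golgi, had signals of 982 and 447, a log2 ratio of -1.13, but -0.09 on a second probe set close to the floor. The large mannose phosphate receptor Igf2r had signals of 2942 and 5328, a log2 ratio of 0.86, and 0.32 on the other probe set.

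Of 20 genes of the TFEB family and its control by nutrients, 14 were higher and the median was 0.23. Mitf, a relative of TFEB, had signals of 260.2 and 604.1, a log2 ratio of 1.22, and Tfe3, another relative, was lower, at 1017 and 778, a log2 ratio of -0.39. Mtor, the kinase that keeps TFEB out of the nucleus, had signals of 1142 and 2408, a log2 ratio of 1.08, but 0.00 on the other probe set. Rraga, a GTPase that recruits that kinase to the lysosome, had signals of 925 and 453, a log2 ratio of -1.03.

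A list of protease inhibitor genes and genes of autophagy completed the comparison. The inhibitor list holds cystatin genes and genes with the prefix Serpin, and action of the latter on the cathepsins measured here was not tested. Cst3, the secreted cathepsin inhibitor cystatin C, had the highest ratio of the 5 measured genes of that list. Its signals were 4305 and 8512, a log2 ratio of 0.98. Serpinb9 had the lowest ratio at -0.13, with 0.45 on its other probe set. Of 17 autophagy genes 10 were higher, with a median of 0.17. At least 2-fold higher were 2 of them (11.8%, against 6.23% of all genes). These were Map1lc3a (1.12, and 1.37 on the other probe set) and Wipi1 (1.02, with 0.67, 0.85, 0.91 and -0.22 on 4 further probe sets and 0.00 on another at the floor).

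**Figure D3:**
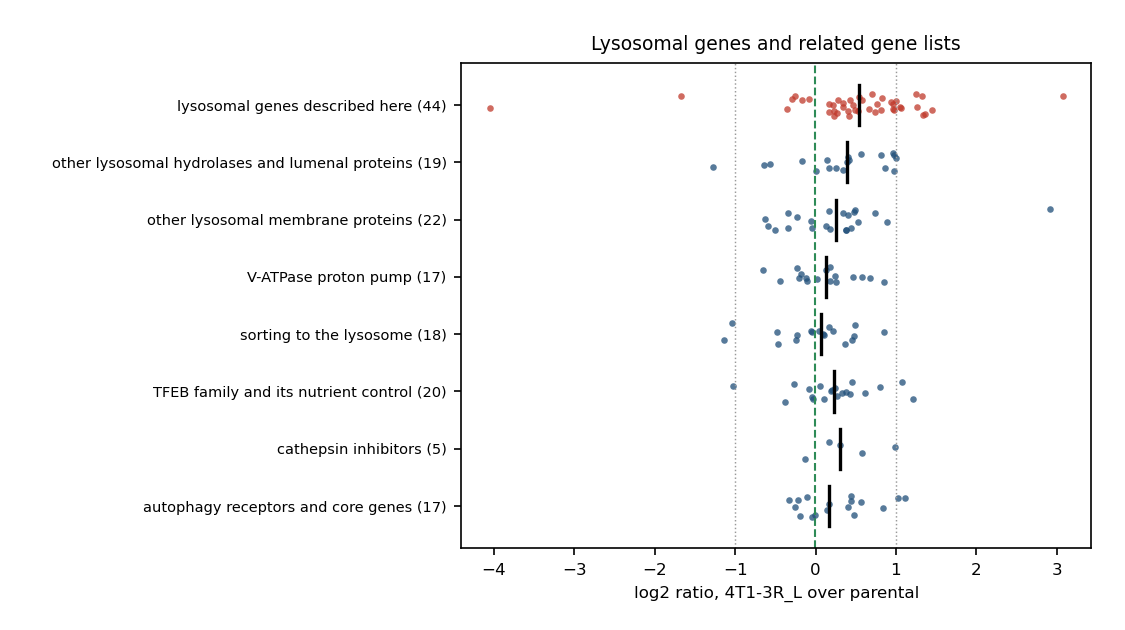
log2 ratios of 4T1-3R_L over parental signal (horizontal axis) for the 44 measured lysosomal genes and for 7 lists of related genes, with the number measured in brackets; each point is a gene, black bars are list medians, the dashed line is the median of all measured genes and dotted lines mark 2-fold. The bar of the lysosomal genes stands at 0.54 and those of the related lists between 0.07 and 0.39.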

How the data were processed

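Total RNA of the 2 populations was hybridised to Affymetrix expression arrays, 1 each. The deposited values are MAS5 signal intensities on a linear scale, per the submitters' processing notes; no source used here gives the MAS5 version, its scaling target or detection calls. The table holds 45101 probe sets, 34958 of them paired with a single gene symbol. Signals under 90.6, the median of all signals, were set to that floor before log2. Each gene took the brightest of its single-gene probe sets by mean log2 signal. It was called measured if either array was at or above the floor there (11135 of 18193 genes). With 1 array in each group no test was run; called means at least 2-fold apart, and the number of arrays limits the precision. A fold against a signal under the floor is a lower bound. Alternatives changed the scaling, the floor (40th or 60th percentile, or a pseudocount of 32), the filter and the probe set. Every lysosomal gene was named; of each related list, the genes at least 2-fold apart or else the highest and lowest were named, and Tfe3, Igf2r and Sumf1 were added after their values were seen. The members and lists were chosen with earlier results of these data known. The planned comparison of cathepsin protein sequences was not run. The procedure was tested on simulated data in which only genes well above the floor on both arrays were changed. That test did not cover values near the floor or a difference in scaling between the arrays. Python 3.11.15, pandas 2.3.3, numpy 2.4.6 and statsmodels 0.14.6 were used.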

Additional observations from a re-analysis of the deposited data

How the results depend on the processing

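Results were recomputed under 11 alternatives, except that 12 genes, Hexa and Acp5 among them, have no value with plain _at probe sets only. Scaling to the hybridisation controls left 1 lysosomal gene at least 2-fold higher (9 as reported), and it turned the sign of 17 genes that were under 2-fold. With the median of all measured probe sets of a gene, 1 gene rather than 2 was at least 2-fold lower, since Ctsc came under 2-fold. With plain _at probe sets only, the cathepsin median relative to all genes was -0.34, because 4 cathepsins were left. The other 129 values of the group and its classes kept their direction, and the counts stayed within 1.5 times. Relative to all genes, the membrane protein median of 0.10 ranged from 0.05 to 0.49, the acid phosphatase median of 0.93 fell to 0.43 with plain _at probe sets, and the cathepsin median of 0.84 to 0.55 when the floor was lowered to the 40th percentile and to 0.34 with the pseudocount and no filter. The median of the lysosomal genes relative to all genes ranged from 0.47 to 0.58 over all alternatives. Calls of single genes were lost for Galc and Ctsa with median centring, and for Galc, Ctsa and Ctsc with the median over probe sets. Npc1 lost its call with a floor at the 60th percentile. Calls were gained for Gaa with quantile normalization and for Gaa, Ctsd and Tpp1 with intensity-dependent loess, and for Tpp1 with the median over probe sets. No paired analysis was possible because each group has 1 array, and for the same reason no replicate could be left out. Values near the floor, such as those of Ctsw and Npc1, are limited by signal over background.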
